A study of Homo sapiens with 6 samples.

Results

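Chaperones are proteins that help other proteins fold, and 39 genes for chaperones of the cytosol and mitochondria, their partners and the heat shock factors were followed here among 62703 genes measured by paired-end RNA sequencing. The members were set by symbol: the HSP70, HSP110, HSP90, HSP60 and HSP10 genes, DNAJ genes, co-chaperones, the subunits of the TRiC ring, HSPB1, SERPINH1, UBB, HSF1 and HSF2. Each of the 39 matched an Ensembl ID in the deposited files and all 39 passed the filter on low counts. The cells were H929 (NCI-H929), an established human multiple myeloma line labelled as wild type, grown in RPMI-1640 with fetal bovine serum. One group received 1 µM Mi-2, an inhibitor of the protease MALT1, for 24 h (3 libraries), and the other received the solvent DMSO for 24 h (3 libraries). The labels do not say whether the libraries of a group are separate cultures of this 1 line, so each p-value speaks only to the variation among these 6 libraries and that variation may be technical.

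The cytosolic system works in steps. HSP70 proteins bind unfolded stretches of a client protein with help from DNAJ proteins, HSP110 proteins reset HSP70, and HSP90 with its co-chaperones finishes clients such as kinases and steroid receptors. The TRiC ring folds actin and tubulin, and in mitochondria HSPA9, TRAP1 and the HSP60 and HSP10 chamber do comparable work. Under heat or other proteotoxic stress the transcription factor HSF1 raises many of these genes by binding heat shock elements in their promoters. Plasma cells and myeloma cells also carry a large set of chaperones in the endoplasmic reticulum (ER), because they secrete antibody.

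After Mi-2, 14 of the 39 genes fell, 1 rose and 24 did not pass the test. In bulk RNA, fewer cells that make a transcript and less of it per cell cannot be told apart. The threshold was an adjusted p under 0.05 (edgeR quasi-likelihood test, Benjamini-Hochberg adjustment over all 16082 tested genes). Of the members 35.9% fell, beside a background of 6.03% of all tested genes, and 2.56% rose, beside 5.02% of all tested genes. The median log2 fold change, Mi-2 over DMSO, was -0.33 over the members and 0.00500 over all tested genes, and 34 of the 39 values were negative. The levels of the groups, in CPM (counts scaled to a common library size by TMM), did not overlap for 25 members or 64.1%, beside 32.3% of all tested genes. The genes that fell were HSPA9, HSPH1, HSP90AA1, TRAP1, HSPD1, CHORDC1, FKBP4, CACYBP, TCP1, CCT2, CCT3, CCT4, CCT6A and CCT7, and the gene that rose was SERPINH1. The count of falls dropped to 6 on removal of Mi-2 library 1 and to 9 on removal of Mi-2 library 3. Removal of a DMSO library left 8 falls (library 1), 5 (library 2) or 6 (library 3). HSP90AA1, FKBP4, CACYBP, TCP1 and CCT6A were called with any 1 library left out. With the deposited TPM values (transcript levels corrected for gene length and scaled to a common total) in place of counts, limma on log2(TPM + 1) called 8 of the 14 and did not call SERPINH1.

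**Figure D1:**
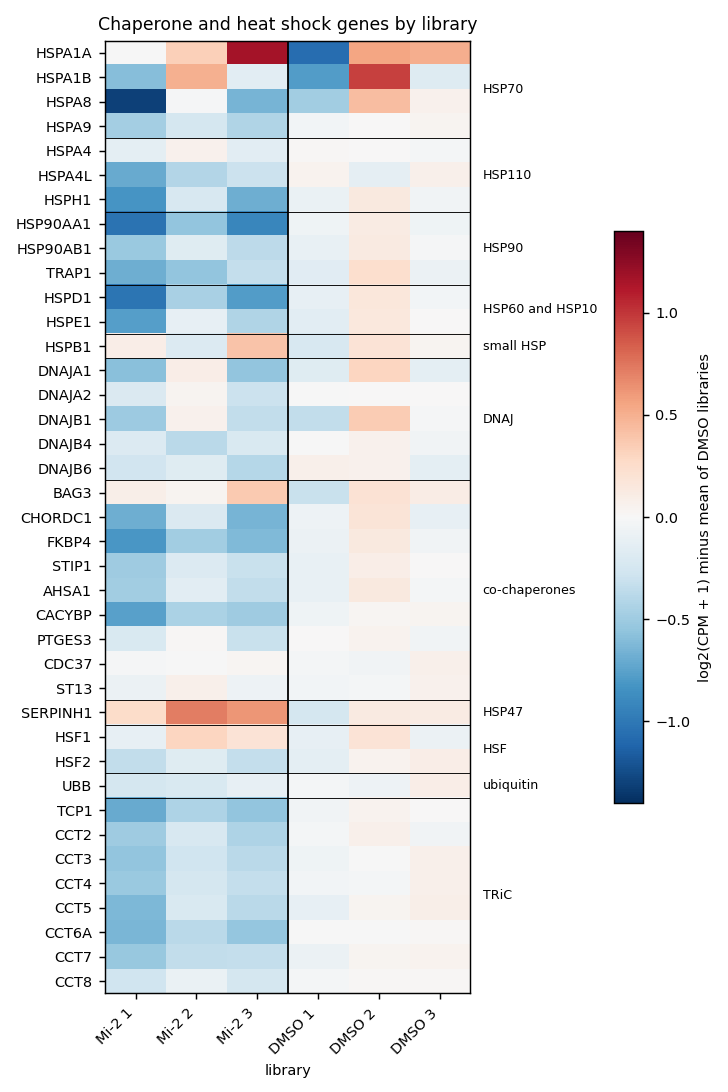
Level of each of the 39 genes in each library, as log2(CPM + 1) minus the mean of the 3 DMSO libraries, with rows by family and the Mi-2 libraries in the left 3 columns. Most rows are below the DMSO mean in the Mi-2 columns, SERPINH1 is above it, and HSPA1A, HSPA1B and HSPA8 vary most within a group.

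Libraries with the same treatment also differed in these genes. Mi-2 library 1 was the lowest of its group for 32 of the 39 members and DMSO library 1 for 30 of them, beside 34.7% and 34.3% of all tested genes. Mi-2 library 2 was the highest of its group for 30 members and DMSO library 2 for 24, beside 33.3% and 32.6% of all tested genes. Totals ran from 21938900 to 23756700 estimated counts in the Mi-2 libraries and from 19980700 to 22651600 in the DMSO libraries. All 8 plasma cell and myeloma markers were present, with a summed level of 10065 to 13214 TPM in Mi-2 libraries and 9208 to 12958 TPM in DMSO libraries, most of it from JCHAIN. Single markers differed: SDC1 had 179, 151 and 168 TPM with Mi-2, against 296, 255 and 233 TPM with DMSO, and CD38 was also lower in every Mi-2 library. MZB1 had 2117, 1914 and 1627 TPM with Mi-2, against 1341, 1156 and 1064 TPM with DMSO, and IRF4 was also higher in every Mi-2 library. The part of these marker differences in the results was not tested. Of 5 markers of T and NK cells, summing to 42.4 to 47.5 TPM with Mi-2 and 29.3 to 34.1 TPM with DMSO, nearly all signal came from CD3E, while CD3D and CD8A were listed at 0 in every library. Myeloid markers summed to at most 0.600 TPM with Mi-2 and 0.770 TPM with DMSO, and fibroblast and epithelial markers to at most 5.65 TPM with Mi-2 and 4.78 TPM with DMSO.

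Heat shock elements, the sites HSF1 binds, are shown for the members whose promoters hold a full match, since they connect these genes to heat shock control. The element was searched as alternating GAA and TTC units spaced by a pair of bases, on both strands, in the 250 bases before each transcript start in RefSeq (GRCh38.p14), which lists 52 starts for 35 of the 39 members. A match of 3 units was found for 7 of the 35 members (20%), beside 0.557% of all 27305 genes in that table and 0.475% of the 11154 tested here. A shorter match of 2 units, GAA then TTC or TTC then GAA at the same spacing, which every match of 3 contains, was found for 16 members (45.7%), beside 14% of all genes. The members were listed as chaperone and heat shock genes, so a higher share than over all genes may follow from that choice. No match of 3 units was found for the heat-inducible members HSPA1A, HSPA1B, DNAJB1 and BAG3. A match describes letters and is not evidence of binding. The stretches below read 5′ to 3′ on the gene's strand, and capitals mark the GAA and TTC units.
HSP90AA1: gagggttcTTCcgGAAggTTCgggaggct
HSP90AB1, farther: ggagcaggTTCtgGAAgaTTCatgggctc
HSP90AB1, nearer: tgagattgTTCtgGAAgcTTCtggattct
HSPA8, nearer: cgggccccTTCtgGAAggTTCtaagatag
HSPD1: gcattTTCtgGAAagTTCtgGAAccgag
CHORDC1: ccgGAAaaTTCgcGAAggTTCctGAAacg
SERPINH1: ttccaactTTCcaGAAgtTTCtcgggacg
DNAJB6: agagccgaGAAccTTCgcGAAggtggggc

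The HSP90AA1 stretch lies at chr14:102087112-102087140 on the minus strand, and its match begins 88 bases before the start. The pair in HSP90AB1 lies at chr6:44247770-44247798 and chr6:44247823-44247851 on the plus strand, both inside the gene, outside its exons, and before its most downstream listed start. HSPA8 has its nearer match at chr11:123062171-123062199 (minus strand), 55 bases before the start, and a second at chr11:123062346-123062374. The HSPD1 stretch lies at chr2:197500063-197500090 (minus strand), the CHORDC1 stretch at chr11:90223084-90223112 (minus), the SERPINH1 stretch at chr11:75562169-75562197 (plus) and the DNAJB6 stretch at chr7:157336865-157336893 (plus). In GENCODE 29 all of these but the HSP90AB1 and DNAJB6 stretches touch an annotated exon of their own gene, and the HSPD1 stretch also one of HSPE1. CHORDC1 holds 5 units in a row and HSPD1 holds 4, by the capitals in the stretch. The 7 genes did not move alike: 3 of the 12 members in the table that fell hold a match (HSP90AA1, HSPD1 and CHORDC1), as do SERPINH1, which rose, and 3 of the 22 that were not called (HSP90AB1, HSPA8 and DNAJB6).

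In the HSP90 family, the stress-inducible gene fell most. HSP90AA1 encodes the heat-inducible cytosolic HSP90 (chromosome 14, 102080738 to 102139699, minus strand, in GENCODE 29 on GRCh38). It had 856, 1195 and 934 CPM in Mi-2 libraries 1, 2 and 3, against 1683, 1900 and 1687 CPM in DMSO libraries 1, 2 and 3. Every Mi-2 library was below every DMSO library, and the log2 fold change was -0.82 ± 0.13 (SE; adjusted p = 0.00666), the largest fall among the members. The constitutive cytosolic gene HSP90AB1 had 1354, 1729 and 1502 CPM with Mi-2, against 1804, 2118 and 1917 CPM with DMSO. Its groups were also separate, but the smaller change of -0.35 ± 0.11 did not pass (adjusted p = 0.0814), while DESeq2 called it lower. HSP90AB1 was not called in any fit with 1 library left out, nor by limma on log2(TPM + 1) (adjusted p = 0.125). TRAP1, the HSP90 of mitochondria, had 159, 174 and 203 CPM with Mi-2, against 229, 301 and 243 CPM with DMSO, and fell by 0.53 on the log2 scale (SE 0.13, adjusted p = 0.0286). TRAP1 stayed called only on removal of Mi-2 library 3 or of DMSO library 1 (largest adjusted p = 0.111), and limma on log2(TPM + 1) did not call it.

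The balance of the cytosolic HSP90 transcripts was also compared within libraries. The TPM ratio of HSP90AA1 to HSP90AB1 was 0.492, 0.544 and 0.483 in the Mi-2 libraries, against 0.729, 0.707 and 0.687 in the DMSO libraries. The groups did not overlap, and the mean ratios were 0.506 ± 0.0326 with Mi-2 and 0.708 ± 0.0212 with DMSO (SD, n = 3 each; exact permutation p = 0.1, two-sided, which is the smallest that 3 against 3 allows). It is 1 of 3 ratios computed, and 0.15 after adjustment over them.

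**Figure D2:**
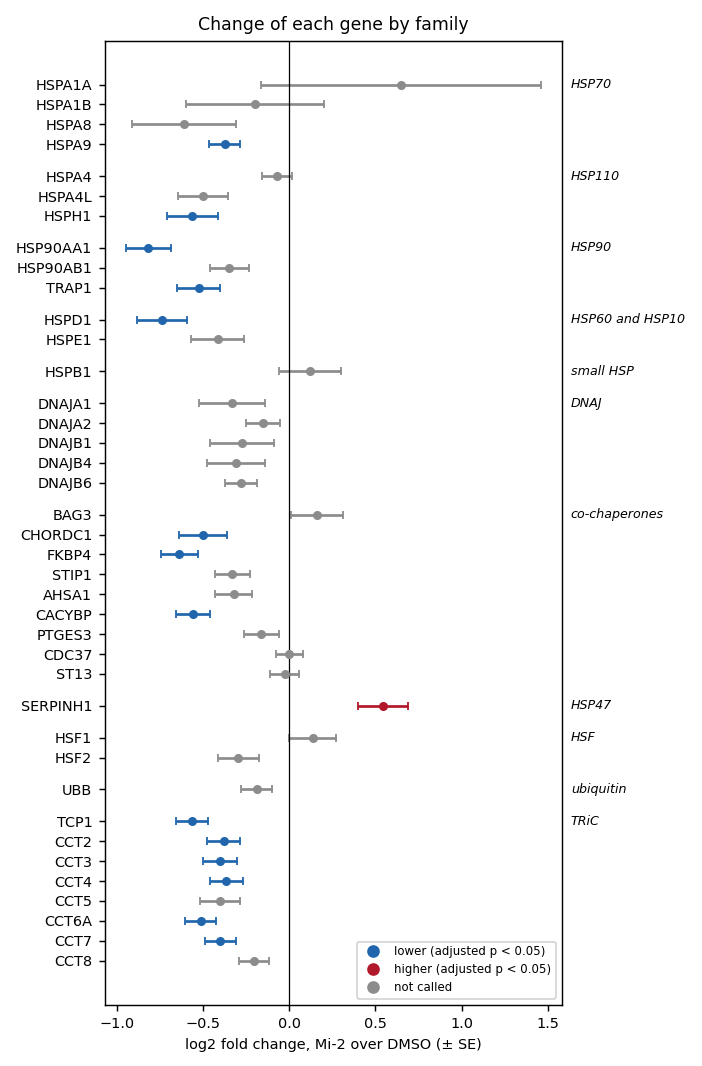
Log2 fold change of each gene, Mi-2 over DMSO, with a standard error computed from its fold change and F statistic in the edgeR fit, by family. Blue points fell, the red point (SERPINH1) rose and grey points did not pass an adjusted p of 0.05, and the values run from -0.82 for HSP90AA1 to 0.65 for HSPA1A, which has the widest error.

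The HSP70 genes differed in level and in evenness between libraries. HSPA8, the constitutive cytosolic HSP70, was the most abundant member at a mean of 1465 TPM with Mi-2 and 2250 TPM with DMSO. It had 1412, 3446 and 2211 CPM in the Mi-2 libraries, against 2481, 4706 and 3618 CPM in the DMSO libraries. Mi-2 library 2 stood above DMSO library 1, so the groups overlapped, and the value of -0.61 ± 0.30 did not pass (adjusted p = 0.232). In an edgeR fit with library number as a block, HSPA8 was called lower (adjusted p = 0.000333), but the labels do not give such a pairing. HSPA9, the mitochondrial HSP70 (mortalin), was far steadier, with 586, 687 and 606 CPM with Mi-2, against 792, 814 and 835 CPM with DMSO. It fell by 0.38 on the log2 scale (SE 0.09, adjusted p = 0.0306), but with 1 library left out it stayed called only without Mi-2 library 2 (adjusted p up to 0.113).

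The strongly heat-inducible HSP70 genes, HSPA1A and HSPA1B, did not pass. They lie close together on chromosome 6 (31815464 to 31817946 and 31827735 to 31830255, plus strand) with near-identical coding sequences, so reads cannot be divided between them with certainty, and the files assign 95.2 to 100% of the pair's CPM to HSPA1B. HSPA1B had 53.5, 116 and 73.1 CPM with Mi-2, against 46.8, 159 and 71.8 CPM with DMSO. The groups overlapped throughout, with a value of -0.20 ± 0.40 (adjusted p = 0.796). HSPA1A had 1.09, 1.64 and 3.69 CPM with Mi-2, against 0, 2.08 and 1.98 CPM with DMSO (0.65 ± 0.81, adjusted p = 0.659). The TPM ratio of both genes together to HSPA8 was 0.0311, 0.0278 and 0.0286 with Mi-2, against 0.0152, 0.0280 and 0.0169 with DMSO. The ranges overlapped through DMSO library 2 (exact permutation p = 0.2, two-sided).

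The HSP110 genes encode larger HSP70 relatives that act as nucleotide exchange factors. HSPH1 (HSP105) had 66.7, 101 and 73.3 CPM with Mi-2, against 111, 131 and 115 CPM with DMSO, and fell by 0.56 on the log2 scale (SE 0.15, adjusted p = 0.0384). Its call was kept only without Mi-2 library 2 when single libraries were left out, and limma on log2(TPM + 1) did not call it (adjusted p = 0.0943). HSPA4L had 8.35, 10.4 and 11.4 CPM with Mi-2, against 14.7, 13 and 15.03 CPM with DMSO. Its groups were separate in CPM and its value of -0.50 ± 0.15 lay just outside the threshold (adjusted p = 0.0563). In TPM the groups overlapped, and limma on log2(TPM + 1) did not call HSPA4L (adjusted p = 0.505). HSPA4 (APG-2) showed a value close to 0, at 198 ± 16.6 CPM with Mi-2 and 208 ± 2.94 CPM with DMSO (SD, n = 3 each; -0.07 ± 0.09, adjusted p = 0.648).

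HSPD1 and HSPE1 encode HSP60 and HSP10, the mitochondrial folding chamber and its lid, and lie head to head on chromosome 2. HSPD1 (197486581 to 197516737, minus strand) had 513, 763 and 603 CPM with Mi-2, against 959, 1164 and 1011 CPM with DMSO. All Mi-2 libraries were below all DMSO libraries, and the gene fell by 0.74 on the log2 scale (SE 0.14, adjusted p = 0.0136). Of the single removals, only that of DMSO library 2 lost the call (adjusted p = 0.0616). Limma on log2(TPM + 1) did not call HSPD1 (adjusted p = 0.0535). HSPE1 (197499994 to 197503457, plus strand) had 98.7, 156 and 126 CPM with Mi-2, against 153, 187 and 169 CPM with DMSO. Its groups overlapped, since Mi-2 library 2 exceeded DMSO library 1, and its value of -0.42 ± 0.15 did not pass (adjusted p = 0.110). With library number as a block, a pairing the labels do not give, edgeR called HSPE1 lower (adjusted p = 0.00356). The TPM ratio of HSPE1 to HSPD1 was 1.48, 1.40 and 1.49 with Mi-2, against 1.23, 1.13 and 1.28 with DMSO. This ratio was chosen after its values were seen, its groups did not overlap, and its exact permutation p was 0.1 (two-sided, the smallest possible). The GENCODE spans of the pair overlap, and whether counting used strand is not given in the sources used here.

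**Figure D3:**
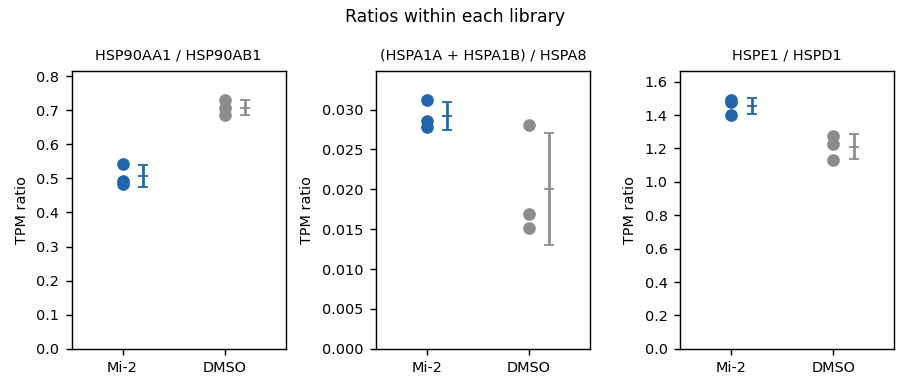
TPM ratios within each library, with Mi-2 on the left and DMSO on the right of each panel; points are libraries and the bar gives the mean ± SD of 3 libraries. The HSP90AA1 to HSP90AB1 ratio is 0.483 to 0.544 with Mi-2 and 0.687 to 0.729 with DMSO, the HSPE1 to HSPD1 ratio is higher in all Mi-2 libraries, and the HSPA1A plus HSPA1B to HSPA8 ratio overlaps.

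DNAJ genes encode the J-domain proteins that deliver clients to HSP70, and none of the 5 passed the threshold. Of all tested genes, 6.03% fell and 5.02% rose. All 5 had negative values, from -0.33 for DNAJA1 to -0.15 for DNAJA2. At an unadjusted p under 0.05 there was 1 of the 5, DNAJB6, beside 4347 of all 16082 tested genes, and DESeq2 called none. DNAJB6, a suppressor of protein aggregation, had 72.8, 77.7 and 66.1 CPM with Mi-2, against 92.3, 91.6 and 79.3 CPM with DMSO (adjusted p = 0.0895). Its groups were separate in CPM and overlapped in TPM. DNAJB1, the main heat-inducible J-domain protein, had 51.7, 76.8 and 57.99 CPM with Mi-2, against 57.97, 94.95 and 72.9 CPM with DMSO, and these overlapped (-0.28 ± 0.19, adjusted p = 0.380). DNAJA1 overlapped too, at 120, 193 and 123 CPM with Mi-2, against 160, 223 and 165 CPM with DMSO. With library number as a block, a pairing the labels do not give, edgeR called DNAJA1, DNAJB1 and DNAJB6 lower (adjusted p = 0.00484, 0.0206 and 0.0126). DNAJB4 was the least abundant of the 5, at 4.29 ± 0.356 CPM with Mi-2 and 5.32 ± 0.230 CPM with DMSO (SD, n = 3 each).

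Of 9 co-chaperone genes, 3 fell (33.3%, beside 6.03% of all tested genes) and none rose (beside 5.02% of all tested genes). FKBP4 (FKBP52), a peptidyl-prolyl isomerase that works with HSP90 on steroid receptors (chromosome 12, 2794953 to 2805423, plus strand), had 114, 143 and 131 CPM with Mi-2, against 190, 221 and 194 CPM with DMSO. It fell by 0.64 on the log2 scale (SE 0.11, adjusted p = 0.00783), and all Mi-2 libraries were below all DMSO libraries. CACYBP, which binds the ubiquitin ligase SIAH1, had 93.9, 117 and 113 CPM with Mi-2, against 153, 162 and 164 CPM with DMSO (-0.56 ± 0.10, adjusted p = 0.00933). In TPM its groups overlapped, at 213, 254 and 303 with Mi-2 and 279, 263 and 408 with DMSO, and limma on log2(TPM + 1) did not call it (adjusted p = 0.430). CHORDC1, a partner of HSP90 whose promoter stretch with 5 units is shown above, had 94.7, 133 and 97.1 CPM with Mi-2, against 146, 173 and 141 CPM with DMSO. It fell by 0.50 on the log2 scale (SE 0.14, adjusted p = 0.0480), and of the single removals, that of Mi-2 library 2 alone kept the call. Limma on log2(TPM + 1) did not call CHORDC1 (adjusted p = 0.102).

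The adaptor and ATPase activator of the HSP90 cycle came close to the threshold. STIP1 (HOP), which links HSP70 to HSP90, had 282, 348 and 321 CPM with Mi-2, against 372, 427 and 399 CPM with DMSO (-0.33 ± 0.10, adjusted p = 0.0657). AHSA1 (AHA1), which speeds up the HSP90 ATPase, had 97.0, 123 and 107 CPM with Mi-2, against 126, 149 and 133 CPM with DMSO (-0.32 ± 0.11, adjusted p = 0.0821). Both pairs of groups were separate, and DESeq2 called both genes lower. Limma on log2(TPM + 1) did not (adjusted p = 0.115 for STIP1 and 0.213 for AHSA1), nor did any fit with 1 library left out. The other 4 showed smaller values. PTGES3 (p23) had -0.16 ± 0.10, ST13 (HIP) -0.03 ± 0.08, and BAG3, a heat-inducible HSP70 partner in selective autophagy, 0.16 ± 0.15. CDC37, which loads kinases onto HSP90, stood at 259 ± 3.72 CPM with Mi-2 and 259 ± 11.4 CPM with DMSO (SD, n = 3 each; adjusted p = 0.996).

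Most subunits of the TRiC ring fell. It is a double ring of 8 different subunits, and 6 of the 8 genes fell. Values of all 8, called or not, ran from -0.56 to -0.21, with a median of -0.40. Over all tested genes 6.03% fell. In all 8 the Mi-2 libraries were below the DMSO libraries in CPM, beside 32.3% of all tested genes with groups that did not overlap in either direction. TCP1 (CCT1; chromosome 6, 159778498 to 159789749, minus strand) had 117, 142 and 130 CPM with Mi-2, against 185, 198 and 192 CPM with DMSO, and fell by 0.56 on the log2 scale (SE 0.09, adjusted p = 0.00751). CCT6A had 305, 367 and 326 CPM with Mi-2, against 473, 473 and 482 CPM with DMSO (-0.52 ± 0.09, adjusted p = 0.00992). These 2 subunits were called with any library left out, while CCT2, CCT3 and CCT4 stayed called only on removal of Mi-2 library 2. CCT7 stayed called on removal of Mi-2 library 2 or 3 or of DMSO library 1.

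CCT7 had 258, 294 and 294 CPM with Mi-2, against 351, 382 and 386 CPM with DMSO (-0.40 ± 0.09, adjusted p = 0.0223). CCT3 had 835, 1012 and 942 CPM with Mi-2, against 1176, 1223 and 1285 CPM with DMSO (adjusted p = 0.0315). Both CCT7 and CCT3 were separate between the groups. CCT2 had 194, 233 and 203 CPM with Mi-2, against 268, 288 and 265 CPM with DMSO (-0.38 ± 0.09, adjusted p = 0.0316). Limma on log2(TPM + 1) did not call CCT2 (adjusted p = 0.0648). CCT4 had 170.1, 205.5 and 195 CPM with Mi-2, against 237.5, 240.1 and 257 CPM with DMSO (-0.37 ± 0.09, adjusted p = 0.0362). The last 2 subunits did not pass. CCT5 had 325, 434 and 387 CPM with Mi-2, against 464, 519 and 533 CPM with DMSO, and its value of -0.40 ± 0.12 missed the threshold (adjusted p = 0.0528). CCT8 had the value closest to 0 in the ring, at 364, 415 and 373 CPM with Mi-2, against 434, 447 and 447 CPM with DMSO (-0.21 ± 0.09, adjusted p = 0.156).

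The subunits sit in the ring in equal number, but their transcripts did not stand at equal levels. Summed over the 8 genes, the ring had 1770, 2062 and 1871 TPM in the Mi-2 libraries, against 2427, 2615 and 2415 TPM in the DMSO libraries. CCT3 gave 33.9% of that sum with Mi-2 and 34.4% with DMSO, and TCP1 gave 5.20% with Mi-2 and 5.93% with DMSO. The highest subunit exceeded the lowest 6.45-fold to 6.56-fold in Mi-2 libraries and 5.98-fold to 6.25-fold in DMSO libraries, per length. In the order of mean TPM, TCP1 and CCT4 were the lowest in Mi-2 libraries and CCT4 and TCP1 in DMSO libraries, and TCP1 lay below CCT4 in each Mi-2 library and above it in each DMSO library.

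**Figure D4:**
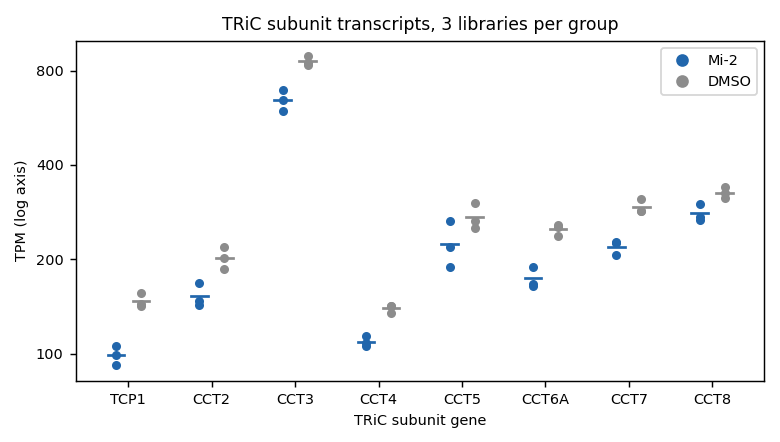
TPM of the 8 TRiC subunit genes on a log axis, with Mi-2 libraries left of DMSO libraries for each gene and a line at the mean of 3 libraries. Every mean is lower with Mi-2, CCT3 is the most abundant subunit in both groups, and the CCT5 groups overlap in TPM.

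SERPINH1 was the 1 member that rose. It encodes HSP47, a collagen chaperone that resides in the ER although its gene is heat-inducible, and its promoter holds the element shown above. It had 39.8, 54.9 and 51.3 CPM with Mi-2, against 27.8, 36.4 and 35.96 CPM with DMSO. All Mi-2 libraries were above all DMSO libraries (0.54 ± 0.14, adjusted p = 0.0392), but the call was kept only without Mi-2 library 1 when single libraries were left out (adjusted p up to 0.120), and limma on log2(TPM + 1) did not call it.

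The heat shock factors themselves did not pass. HSF1, the main heat shock transcription factor, had 25.0, 33.7 and 31.0 CPM with Mi-2, against 24.96, 31.1 and 25.6 CPM with DMSO (0.14 ± 0.14, adjusted p = 0.570). HSF2, a second factor that can pair with HSF1, had 13.97, 15.9 and 14.1 CPM with Mi-2, against 16.3, 18.6 and 19.2 CPM with DMSO. Its groups were separate in CPM, with a value of -0.30 ± 0.12 (adjusted p = 0.141), and overlapped in TPM. Of the other stress-inducible members, HSPB1 (HSP27) had 14.5, 11.7 and 18.1 CPM with Mi-2, against 11.4, 15.5 and 13.8 CPM with DMSO (adjusted p = 0.718). UBB, a polyubiquitin gene, had 546, 561 and 602 CPM with Mi-2, against 639, 620 and 691 CPM with DMSO, separate but not called (-0.19 ± 0.09, adjusted p = 0.198). Activity of the HSF1 protein was not measured.

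As a share of all transcripts, the 39 genes made up 0.743, 0.990 and 0.836% of TPM in the Mi-2 libraries, against 1.05, 1.303 and 1.11% in the DMSO libraries. Without HSPA8, the most abundant member, the shares were 0.652, 0.776 and 0.701% with Mi-2, against 0.887, 0.998 and 0.894% with DMSO. The groups were separate in both sums. After HSPA8 the most abundant members in TPM were UBB, HSP90AB1, CCT3, HSPE1, HSP90AA1 and HSPD1. HSPE1 and HSP90AA1 stood at 735 and 690 TPM in DMSO libraries, with overlapping values, and at 524 and 387 TPM in Mi-2 libraries. HSPA1A, HSPA4L and DNAJB4 were the least abundant, at means of 1.23, 2.18 and 4.05 TPM with Mi-2 and 0.730, 2.68 and 3.84 TPM with DMSO. 

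Other genes of the chaperone network, from a list of 57 with 54 tested, fell in 10 cases (18.5%, beside 6.03% of all tested genes) and rose in 2 (3.70%, beside 5.02%), with a median of -0.09. FKBP5 (FKBP51), an HSP90 partner related to FKBP4, had 58.7 ± 4.73 CPM with Mi-2 and 94.5 ± 4.37 CPM with DMSO (SD, n = 3 each; -0.69 ± 0.09, adjusted p = 0.00336). DNAJC9, a J-domain protein that also chaperones histones, fell by 0.80 on the log2 scale (SE 0.10, adjusted p = 0.00264), and BAG2, an HSP70 exchange factor, by 0.83 (SE 0.16, adjusted p = 0.0144). GRPEL2, a nucleotide exchange factor for HSPA9 in mitochondria, fell by 0.48 (SE 0.08, adjusted p = 0.00902), NUDC, an HSP90 partner, by 0.42 (SE 0.08, adjusted p = 0.0130), and HSPA14 by 0.44 (SE 0.10, adjusted p = 0.0215). The rises were DNAJB5 (0.82 ± 0.16, adjusted p = 0.0135) and DNAJB2 (0.45 ± 0.08, adjusted p = 0.0114). FKBP5, DNAJC9 and GRPEL2 were called with any library left out, while the 5 others named lost their calls on removal of Mi-2 library 1, where the list had 3 falls and 0 rises. It had 3 falls and 1 rise on removal of DMSO library 2 or of DMSO library 3, and 6 falls and 2 rises on removal of DMSO library 1. Over all tested genes, removal of Mi-2 library 1 left 302 falls and 216 rises. Removal of DMSO library 1, 2 or 3 left 736, 390 or 418 falls and 642, 246 or 275 rises over all tested genes.

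Chaperones of the ER had values of the opposite sign. Of 14 on the list, 10 rose (71.4%, beside 5.02% of all tested genes) and none fell (beside 6.03%), with a median of 0.54, beside 1 rise and 14 falls among the 39 members; no test of the difference between the lists was made. HSPA5 (BiP), the HSP70 of the ER, had 2041, 1932 and 1753 CPM with Mi-2, against 1451, 1251 and 1209 CPM with DMSO (0.55 ± 0.11, adjusted p = 0.0130). Within each group its highest library was library 1, the library in which most cytosolic members were lowest. HYOU1, the HSP110 of the ER, had 1990 ± 217 CPM with Mi-2 and 1178 ± 124 CPM with DMSO (SD, n = 3 each; 0.76 ± 0.12, adjusted p = 0.00578). DNAJB9 (1.09 ± 0.17), DNAJC3 (0.71 ± 0.13), PDIA3 (0.71 ± 0.11) and CALR (0.67 ± 0.11) also rose, at adjusted p of 0.00618, 0.0117, 0.00668 and 0.00697 in that order. On removal of Mi-2 library 1, of DMSO library 2 or of DMSO library 3 the list had 4 rises, and DNAJC3 and HSPA5 were not among them (largest adjusted p = 0.0639). Over all tested genes these fits called 216, 246 and 275 rises, beside 808 with all 6 libraries.

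**Figure D5:**
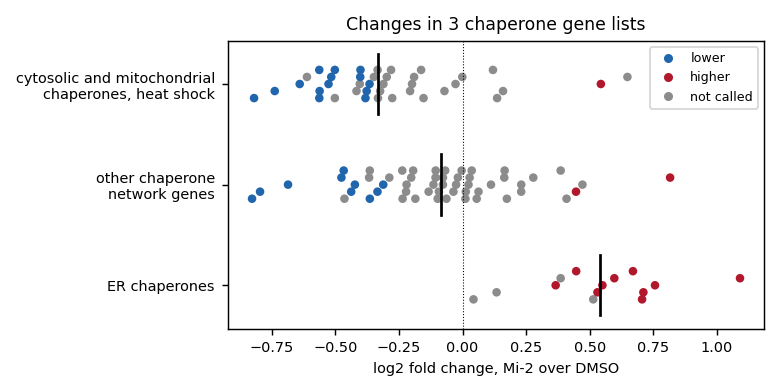
Log2 fold change, Mi-2 over DMSO, of each tested gene in 3 lists, with a black line at the median and colours for genes that rose, fell or were not called. The medians are -0.33 for the 39 cytosolic and mitochondrial members, -0.09 for the other network genes and 0.54 for the ER chaperones.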

How the data were processed

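RNA of 6 H929 libraries was sequenced as paired ends on a NovaSeq instrument, per the labels' protocols. The submitters' processing notes name fastp 0.19.5, HISAT2 2.1.0, StringTie 2.1.0, RSEM 1.3.3 and build GRCh38.p13, without roles. The authors deposited estimated counts per gene, partly fractional and not scaled between libraries, and a table of TPM values. The sources used here do not give RNA selection or strand use. Symbols came from a table of Ensembl IDs (62625 of 62703 matched), coordinates from GENCODE 29 (GRCh38) and promoters from RefSeq (GRCh38.p14).

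Estimated counts were rounded, filtered with filterByExpr (minimum count 10, minimum total 15) and scaled by TMM, then tested for Mi-2 (3 libraries) over DMSO (3 libraries) by the edgeR quasi-likelihood method (edgeR 4.0.16 in R 4.3.3) across 16082 genes, adjusted by Benjamini-Hochberg with a threshold of 0.05. The SE of a fold change was computed as the absolute log2 fold change divided by the square root of the F statistic of that test. The biological coefficient of variation was 14.2%, and totals of 19980700 to 23756700 limit what can be detected in genes with few counts. The fit was tested on simulated data. Differences within groups were 16.6 to 23.5 times the chi-square of counting alone, so no library was a copy of another.

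The members and gene lists were chosen with earlier results of these data known. All 39 members are accounted for: every called member, and the uncalled HSP70, HSP90 and HSF genes and those near the threshold, by library. Of the 2 other lists, up to 6 called genes per direction with the smallest p are named, and only their own counts and medians are given. Each fit was repeated with other scalings (RLE, upper quartile), DESeq2 1.42.0 or limma-voom (limma 3.58.1), other low-count filters, and without immunoglobulin genes plus the 20 most counted genes. Limma was run on log2(TPM + 1) and log2(TPM + 0.1), keeping genes with a mean TPM of at least 1 or keeping all; such fold changes carry the pseudocount and understate changes of low genes. Further repeats used library number as a block, left out each library, or summed HSPA1A and HSPA1B. Adding rows named as pseudogenes to 25 members was chosen after seeing the data, as was the HSPE1 to HSPD1 ratio.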

Additional observations from a re-analysis of the deposited data

How the results depend on the processing

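All 14 falls were also called under RLE and upper-quartile scaling, DESeq2, limma-voom, a 1 CPM minimum in at least 3 libraries, exclusion of immunoglobulin and top genes, HSPA1A and HSPA1B added together, and pseudogenes added to members. Nothing reversed among called members under any alternative. With the low-count filter dropped (31459 genes with at least 1 count tested), edgeR called 1221 genes higher and 1541 lower over all genes. It called 22 members lower (HSP70 2, HSP110 2, HSP90 3, HSP60 and HSP10 2, DNAJ 1, co-chaperones 5, TRiC 7) and 4 network genes higher. DESeq2 called 1045 genes higher and 1269 lower over all genes, beside 808 and 969 in the main fit. It called 20 members lower (HSP70 1, HSP110 2, HSP90 3, HSP60 and HSP10 2, co-chaperones 5, TRiC 7). Limma on log2(TPM + 1) called 229 genes higher and 381 lower. It called 8 members lower (HSP70 1, HSP110 0, HSP90 1, HSP60 and HSP10 0, co-chaperones 1, TRiC 5) and 0 higher. Of the other lists it called 0 network genes higher and 4 lower and 4 ER chaperones higher. With 0.1 added, limma called 249 genes higher and 398 lower. It then called 9 members lower (HSP70 1, HSP110 0, HSP90 1, HSP60 and HSP10 1, co-chaperones 1, TRiC 5) and 0 higher, 1 network gene higher and 4 lower and 5 ER chaperones higher. With no TPM filter it called 0 genes in every list and over all genes, with 31463 genes tested; at an unadjusted p under 0.05, limma then had 3808 genes, 19 members lower and 1 higher. For the other differences the cause was not tested. Heat shock elements of 2 units were found for 16 members in place of 7.

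Whether the library number in the titles pairs the libraries is not given by the labels. The number was not treated as a pairing in the main fit, because the labels name no pairs. Most members were lowest in library 1 and highest in library 2 of both groups, as given above. Over all tested genes, deviations from the group means correlated at 0.409, 0.059 and 0.261 for numbers 1, 2 and 3. Libraries 1 and 3 of each group correlated best with their own number, as did DMSO library 2 (0.059, beside 0.057 with Mi-2 library 3). Mi-2 library 2 correlated best with DMSO library 3 (0.079, beside 0.059 with its own number). These values are a hint from the data and not the design. With the number as a block, 1791 genes were called higher and 2035 lower. Of the members 26 were lower (HSP70 2, HSP110 2, HSP90 3, HSP60 and HSP10 2, DNAJ 3, co-chaperones 5, TRiC 8 and UBB), and 6 network genes were higher. Leaving out 1 library gave 216 to 715 genes higher and 302 to 866 lower, with 0 to 1 members higher and 5 to 15 lower. By family the falls were HSP70 0 to 1, HSP110 0 to 1, HSP90 1 to 2, HSP60 and HSP10 0 to 2, co-chaperones 2 to 3 and TRiC 2 to 7. Network genes were higher in 0 to 3 cases and lower in 3 to 8, and 4 to 10 ER chaperones were higher. The median over the members ran from -0.45 to -0.27 in these fits. The 3 ratios and the summed TPM share kept their direction with any library left out.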

Other observations

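For a few members the deposited TPM and the counts gave different pictures. HSPB1 had 35.3, 20.6 and 39.7 TPM in Mi-2 libraries 1, 2 and 3, against 23.0, 41.3 and 20.8 TPM in DMSO libraries 1, 2 and 3, a wider spread than in CPM. DNAJB4 had separate groups in CPM and overlapping groups in TPM, at 4.84, 3.34 and 3.97 with Mi-2 and 4.08, 4.19 and 3.26 with DMSO. HSPE1 overlapped in CPM and was separate in TPM, at 432, 626 and 514 with Mi-2 and 683, 814 and 707 with DMSO.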
